A study of Mus musculus with 15 samples.

Results

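Exc_13 is one of 26 excitatory clusters that the authors defined in single-cell RNA sequencing of the mouse prefrontal cortex (PFC). The paper's text also uses the name Exc-13 in a coarser set of clusters, for a different population marked by Foxp2. Its statements on Exc-13 do not describe the cells reported here. Its members are the 644 cells that carry this cluster name in the deposited table of cells, out of 35360 retained cells, and they made up 3.16% of the 20377 cells in excitatory clusters. Of these, 443 came from P60 libraries and 201 from P21 libraries. Clusters were built by the authors on P60 cells, and P21 cells received their cluster by correlation with the P60 clusters, so expression of a cluster against another is given here as a description without a test.

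All libraries came from male C57BL/6N mice. The 12 P60 libraries (8 to 10 weeks in the labels) came from mice trained to press a lever for intravenous cocaine or saline. Tissue was taken at the end of the maintenance phase, after 48 h of withdrawal or after 15 days of withdrawal, with 2 libraries of 2 pooled mice for each of the 6 groups. The 3 P21 libraries (3 weeks) came from 4 untreated mice in all. How these mice were divided is not given in the sources used here, so the P21 libraries may share animals and their spread may be too small.

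Layer 6 intratelencephalic (L6 IT) neurons are glutamatergic cells of the deepest cortical layer whose axons stay within the telencephalon and reach other cortical areas and the striatum. Opioid signaling uses peptides cut from precursors such as proenkephalin (Penk) and prodynorphin (Pdyn), and the kappa receptor (Oprk1), the main receptor of dynorphins, dampens excitability and transmitter release through inhibitory G proteins. Neuropeptide Y (Npy) is best known in the cortex from inhibitory interneurons.

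Each library held 14 to 113 Exc_13 cells at P60 and 62 to 76 at P21. Their median was 12179.5 UMIs and 3705 genes per cell, beside 9573 UMIs and 3297 genes in Exc_12, the most similar cluster. Summed over cells, a library gave 195889 to 1483019 UMIs of Exc_13, and this sum sets the precision of every value below. Libraries shared few barcodes: 747 of 34602 distinct barcodes occurred in more than 1 library, at most 27 in any pair, and 1 barcode was carried by Exc_13 cells of 2 libraries. Of the P21 members, 8 carried a non-neuronal class in the authors' table, 5 of them in the first P21 library, and no P60 member did. Levels are counts per 1e6 UMIs (CPM) of a library's summed Exc_13 cells, without mitochondrial and ribosomal protein genes, as mean ± SD over libraries. Labels name no separate cultures beyond the pooled mice, so libraries are the replicates. edgeR shares its estimate of spread between genes, so a p-value does not measure the spread of 1 gene between libraries alone. In the tests of a difference between cell groups, p-values rested mainly on the shared estimate.

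The markers went with the excitatory label. All 6 pan-excitatory markers lay at 5 CPM or above, with the vesicular glutamate transporter Slc17a7 at 547 ± 78.3 CPM, and inhibitory markers summed to 8.94 CPM, with the interneuron factor Lhx6 at 0 in every library. The 8 L6 IT markers summed to 376 CPM on average, the highest of the 26 clusters, where the median of the other clusters was 13.4 CPM. Penk gave 193 CPM of this sum, lay at 40.1 CPM in Exc_12 and was higher in Exc_1 and Exc_2 than in Exc_13. The rank of the list without Penk was not computed. The other detected markers lay at similar levels in Exc_12, the most similar cluster. By these markers Exc_13 is L6 IT-like, with 5 of the 8 detected at 5 CPM or above: Oprk1, Osr1, Penk, Sulf1 and Cdh9. Car3 was at 0 in all libraries, Col18a1 was at 0 in the P60 libraries and Col23a1 lay at 1.03 ± 1.86 CPM. Markers of L6 corticothalamic neurons (79.7 CPM) and of L5/6 near-projecting neurons (1.65 CPM) ranked 25 and 26 of the 26 clusters. The L6b list ranked 2 at 31.2 CPM, but 3 of its 5 genes, Ctgf, Nxph4 and Moxd1, were at 0. Of the glial and vascular lists at P60, the astrocyte list summed to 274 CPM against a median of 467 in the other clusters and the oligodendrocyte list to 117 against 108 CPM. The endothelial list summed to 51.6 against 23.3 CPM and ranked 2 of 26. Microglia and oligodendrocyte precursor (OPC) lists summed to 8.12 and 1.28 CPM.

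The kappa opioid receptor and Npy marked Exc_13 together with Exc_12. Oprk1 (NCBIM37 chr1:5578574-5596212, plus strand) lay at 78.1 ± 36.5 CPM in Exc_13 over the 12 P60 libraries, at 65.7 CPM in Exc_12 and at 4.42 CPM on average over all other clusters, Exc_12 included. It was above Exc_12 in 7 of 12 libraries, so the order of these neighbors does not exceed their spread. Npy (chr6:49772709-49779506, plus strand) lay at 533 ± 189 CPM in Exc_13, 409 CPM in Exc_12 and 27.2 CPM on average over all others, Exc_12 included, with Exc_14 next at 27.4 CPM. Exc_13 exceeded Exc_12 for Npy in 8 of 12 libraries, again within the spread. Osr1, a zinc finger transcription factor, was at 26.2 CPM (4.01 to 42.9 over libraries) against 34.4 CPM in Exc_12, and Exc_14 came next at 4.58 CPM. The heparan sulfate sulfatase Sulf1 (32.0 ± 8.48 CPM) and the cell adhesion protein Cdh9 (45.2 ± 10.4 CPM) were shared with Exc_12 in the same way (32.0 and 41.3 CPM).

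Within Exc_13 these genes were detected in a large share of cells but not in all. At P60, 42.9% of the 443 cells held an Oprk1 UMI (95% exact interval 38.2 to 47.6%), against 38% in Exc_12 and 1.67% in the 22 clusters outside the 3 most similar ones. In mature oligodendrocytes, which are shallower (median 3626 UMIs, against 13459 in Exc_13), the share was 0.19%. Thinned to 5000 UMIs per cell, with 8 Exc_13 cells left out as shallower, the Oprk1 shares were 22.6% in Exc_13 and 22% in Exc_12. For Npy the shares were 41.8% in Exc_13 and 43.2% in Exc_12, and 7.79% in oligodendrocytes. At 5000 UMIs they were 32.7% and 34.6%, against 5.98% in the 22 other clusters and 12.1% in oligodendrocytes, but the latter rests on the 308 deepest of 1578 oligodendrocytes, which also held Slc17a7 in 14.7%. Without thinning the 22 clusters stood at 14.5%, above oligodendrocytes, so how much of the Npy signal outside the pair is background was not settled. A Gad1 UMI was found in 1.81% of Exc_13 cells and in 1.27% of oligodendrocytes, and in 1.99% of the cells of the 22 other clusters, where this GABA synthesis gene is not expected, so its share in Exc_13 was no higher than theirs. Intervals cover counting error only.

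Penk separated Exc_13 from Exc_12. Penk (chr4:4060678-4065966, minus strand), the enkephalin precursor, lay at 193 ± 61.5 CPM in Exc_13, rank 3 behind Exc_1 (286 CPM) and Exc_2, and at 40.1 CPM in Exc_12. A Penk UMI was found in 61.4% of Exc_13 cells, 19.4% of Exc_12 cells and 0.951% of oligodendrocytes. Exc_13 was the cluster in which the opioid precursor and the kappa receptor were both high, since Exc_1 and Exc_2 held Oprk1 at 0.165 and 0.381 CPM. Of the other opioid genes, Pdyn lay at 0.223 CPM and Oprm1, the mu receptor, at 0.402 CPM. The nociceptin receptor gene Oprl1 was lower in Exc_13 than in any other excitatory cluster, at 12.6 ± 6.72 CPM against a mean of 23.7 CPM.

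**Figure D1:**
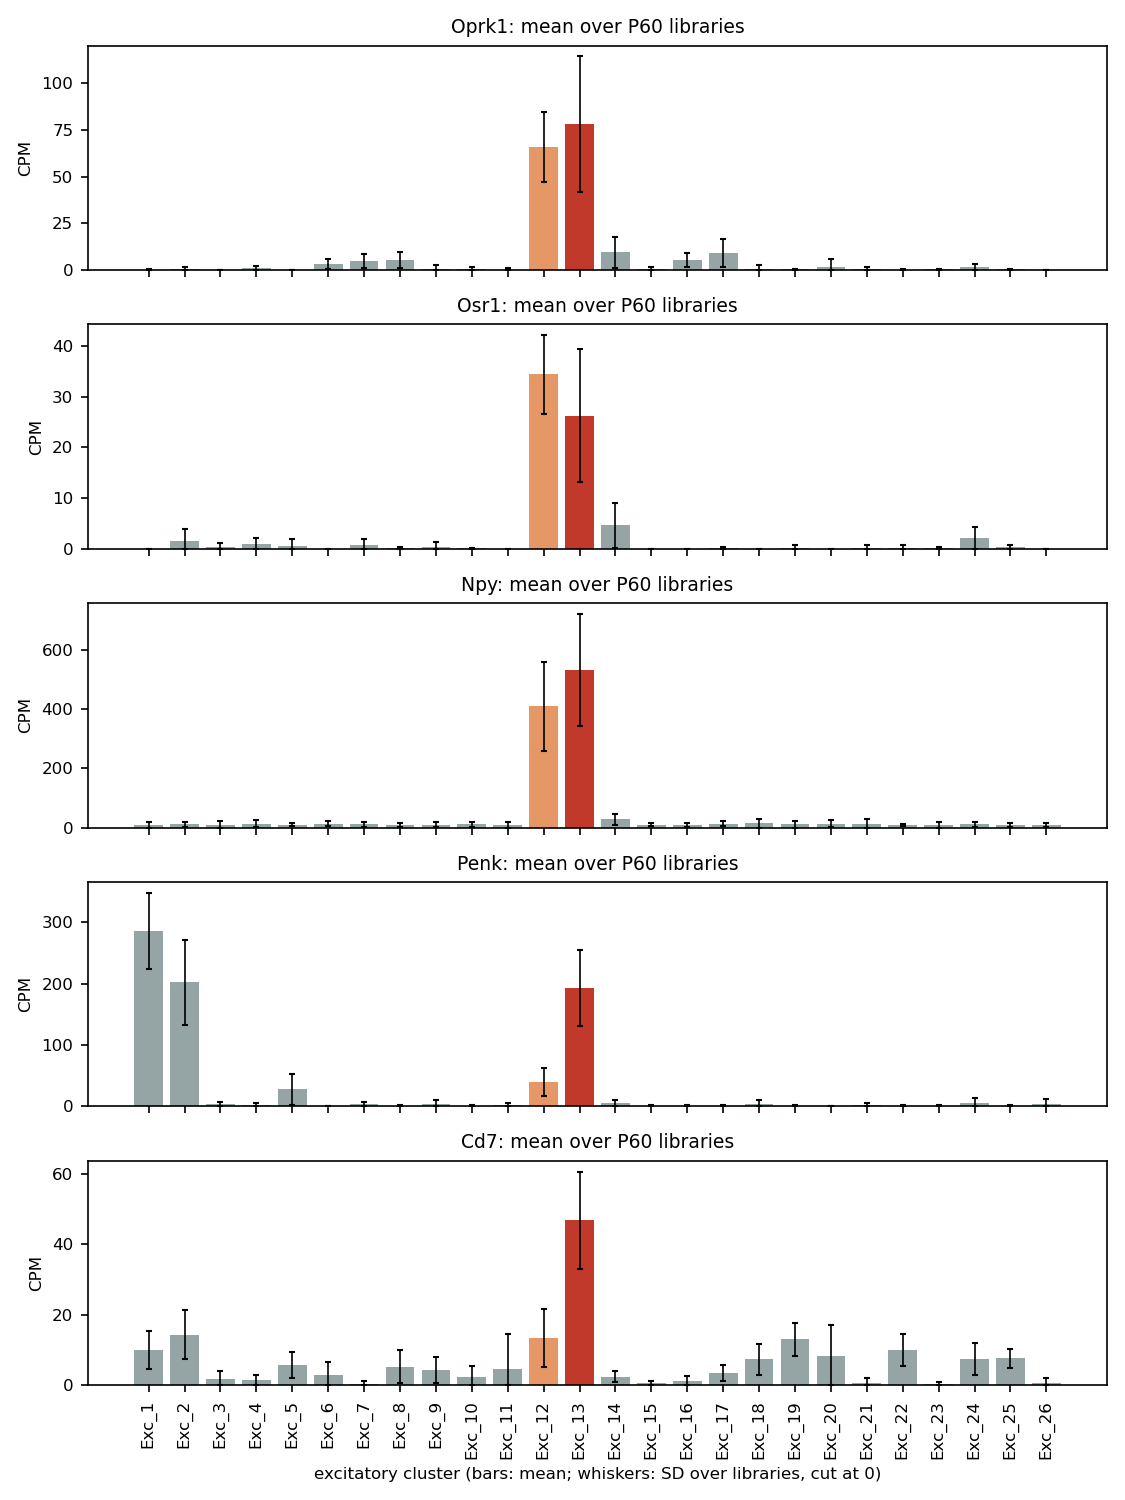
Levels of Oprk1, Osr1, Npy, Penk and Cd7 (CPM, one panel each with its own axis from 0) in the 26 excitatory clusters, as mean over P60 libraries with SD whiskers that end at 0; Exc_13 is red and Exc_12 orange. Oprk1, Osr1 and Npy are high in Exc_12 and Exc_13, Penk in Exc_1, Exc_2 and Exc_13, and Cd7 reaches 46.9 CPM in Exc_13 against at most 14.3 CPM elsewhere.

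Of 5854 genes with at least 20 CPM there, 168 were highest in Exc_13, 10 by more than 1.5-fold over the next cluster and 3 by more than 2-fold. By the 1.5-fold count, 20 of the other clusters had fewer such genes and 5 had more. The 12 with the largest ratio were Cd7, S100a13, Rhoc, S100a3, Lipg, Ier3, Plekha2, Cited1, Epor, Blnk, Gm2694 and Stac2. Cd7 (chr11:120898061-120900732, minus strand), an immunoglobulin-family surface protein known from lymphocytes, led at 46.9 ± 13.8 CPM against 14.3 CPM in Exc_2 and was above it in 12 of 12 libraries. Ier3, a stress and growth factor response gene, lay at 113 ± 39.9 CPM against 66.7 CPM in Exc_2, also in 12 of 12 libraries. The calcium-binding S100a13 (33.7 ± 19.5 CPM) and S100a3 (48.6 ± 31.5 CPM), the endothelial lipase Lipg (26.9 ± 8.45 CPM) and the transcriptional coregulator Cited1 (65.1 ± 15.6 CPM) followed. The signaling adaptor Blnk (114 ± 27.4 CPM) and the noncoding Gm2694 (117 ± 19.8 CPM) had Exc_12 as the next cluster, at 75.8 and 78.0 CPM.

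The 8 genes furthest below the mean of the other excitatory clusters included 5 known from other layers or projection types. The 8 were Tshz2 (0.473 CPM in Exc_13 against a mean of 96.0 CPM in the others), Lypd1 (0.920 against 64.8), Cpne8 (1.28 against 60.8), Ddit4l (1.16 against 51.9), Rorb (2.17 against 70.7), Cux2 (2.31 against 60.6), 6330527O06Rik (6.88 against 169) and Etv1 (4.24 against 97.3). Rorb and Cux2 are transcription factors of upper and middle layers, Etv1 of layer 5, and Tshz2 and Lypd1 were among the near-projecting markers. The low levels were mostly shared with Exc_12, at 0.768 CPM for Tshz2, 3.95 for Rorb, 0.907 for Cux2 and 12.2 for Etv1, and the Tshz2 mean rests largely on Exc_21 (2099 CPM). Of the corticothalamic factors, Foxp2 lay at 0.679 CPM and Tle4 at 4.14 CPM, the latter lower than in every other cluster.

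Over 9733 genes, the summed profile of Exc_13 resembled Exc_12 most (Pearson r = 0.9841 of log2 (CPM + 1)), followed by Exc_24 (0.9527) and Exc_14 (0.9525). These are correlations across genes within 1 set of cells and carry no p. Counting genes with at least 20 CPM in either cluster, a mean difference over 2-fold and the same direction in every P60 library, Exc_13 had 24 genes higher and 22 lower than Exc_12 out of 6212. The same rule, chosen after the values had been seen, gave 127 higher and 129 lower against Exc_24 (in the 11 P60 libraries with at least 10 Exc_24 cells), and 120 higher and 133 lower against Exc_14.

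The 24 genes higher in Exc_13 than in Exc_12 included secreted peptides and synaptic factors. Nptx2 (chr5:145306756-145318347, plus strand), a neuronal pentraxin that gathers AMPA receptors at excitatory synapses, lay at 138 ± 37.0 CPM against 17.8 ± 6.34 CPM, a ratio of 7.73. Inhba (chr13:16103684-16119044, plus strand), the subunit of activin A, lay at 152 ± 32.8 CPM against 27.6 ± 10.7 CPM (5.49), and the activin receptor family member Acvr1c at 66.2 ± 25.1 against 30.6 ± 8.37 CPM (2.16). Bdnf (chr2:109514857-109567204, plus strand), the neurotrophin, lay at 425 ± 130 against 137 ± 35.7 CPM (3.11), and the granin Scg2 (chr1:79431244-79436665, minus strand) at 680 ± 140 against 322 ± 68.0 CPM (2.11). All of these are also high in Exc_2, whose levels exceeded those of Exc_13 for Nptx2 (152 CPM), Inhba (179 CPM), Bdnf (568 CPM) and Scg2 (995 CPM).

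Other genes of this set act in the nucleus or at the membrane. Crem (ratio 2.08), a transcription factor of the cyclic AMP pathway, Gadd45b (2.3), the cell cycle inhibitor Cdkn1a (2.62) and cyclin D1 (Ccnd1, 2.6) were higher, as were the semaphorin receptor Nrp1 (2.25), the calmodulin regulator Pcp4 (2.09) and the calcium-binding S100a1 (2.82) and S100a6 (2.64). Shares of cells with a UMI followed the levels. Nptx2 was found in 65.2% of Exc_13 and 13.7% of Exc_12 cells, Inhba in 74.7% and 18.8%, and Bdnf in 90.5% and 49.2%, beside 0.507%, 0.317% and 2.28% of oligodendrocytes. At 5000 UMIs per cell Nptx2 was still found in 39.4% and 6.69%, Inhba in 45.3% and 10.1% and Bdnf in 70.3% and 32%.

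The 22 genes lower in Exc_13 than in Exc_12 were led by decorin (Dcn), an extracellular matrix proteoglycan, at 3.60 ± 4.16 against 63.3 ± 46.1 CPM. Gastrin-releasing peptide (Grp) lay at 14.3 ± 11.4 against 59.7 ± 22.1 CPM, the pro-apoptotic Hrk at 8.49 ± 4.55 against 32.5 ± 6.83 CPM and the ligand Wnt4 at 10.7 ± 5.84 against 29.5 ± 8.11 CPM. The young-neuron genes Dcx (15.2 ± 6.89 against 33.6 ± 7.09 CPM) and Tubb2b (41.6 ± 14.6 against 84.5 ± 36.1 CPM) and the kinase ERK1 (Mapk3, 84.0 ± 17.7 against 188 ± 43.9 CPM) were also in this set.

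In the P21 libraries, which the rule did not use, most genes of both sets kept their direction in the mean, and the 2 sets were not tested against each other. There, 24 of the 24 higher genes were higher in the mean and 19 in all 3 libraries, with a median ratio of 2.27 against 2.63 at P60. Of the 22 lower genes, 21 were lower in the mean and 11 in all 3 libraries, with a median ratio of 0.633 against 0.413. Grp (106 against 108 CPM at P21, ratio 0.981) and Tubb2b (172 against 162 CPM, ratio 1.06) were not separated at P21. Among the higher genes, S100a3 (ratio 1.08 at P21, 7.61 at P60), S100a13 (1.46, 4.46), Cited1 (1.23, 2.51), H2-T23 (2.79, 3.48) and Crem (1.46, 2.08) were higher in 2 of 3 P21 libraries only. Penk already was separated, at 228 against 42.6 CPM. P21 cells were assigned by correlation over a gene list that may hold some of these genes, so this is a description too.

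**Figure D2:**
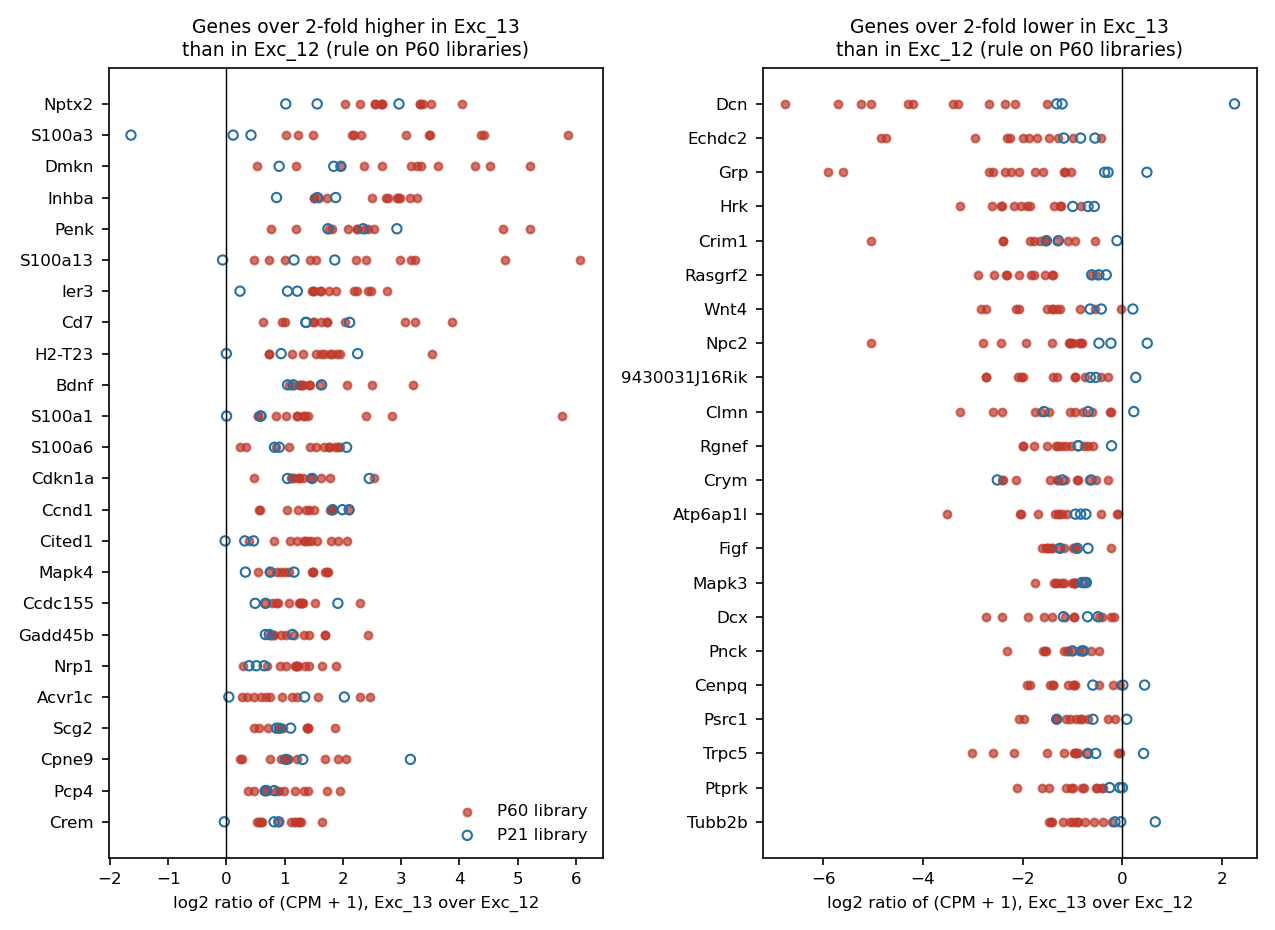
The log2 ratio of (CPM + 1) in Exc_13 over Exc_12 for the 24 higher genes (left) and the 22 lower genes (right), one point per library, P60 filled red and P21 open blue. P60 points lie on one side of 0 by the rule; the P21 points of the higher genes lie mostly to the right of 0, while Grp and Tubb2b among the lower genes sit around it.

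Bdnf, Scg2 and Crem belong to a gene set known to respond to cyclic AMP and calcium, so the start regions of the higher genes were searched for the cyclic AMP response element TGACGTCA and its core TGACGT, on both strands. RefSeq start regions (GRCm38.p6, 250 bases before to 50 after the start) were found for 17 of the 24 higher and 12 of the 22 lower genes. The full element was in 1 of 17 higher genes (Scg2) and 0 of 12 lower genes, against 1.79% of all 32851 start regions. The core, which the full element contains, was in 3 of 17 (Bdnf, S100a13 and Scg2) and in 3 of 12 lower genes (Cenpq, Ptprk and Rasgrf2), against 7.51% of all. The regions of Scg2 (chr1:79439977-79440276, minus strand, element 68 bases before the start) and Bdnf (chr2:109692186-109692485, plus strand, core on the opposite strand 36 bases before the start) are shown since these were the most abundant of the higher genes with a match. Capitals mark the match.
Scg2: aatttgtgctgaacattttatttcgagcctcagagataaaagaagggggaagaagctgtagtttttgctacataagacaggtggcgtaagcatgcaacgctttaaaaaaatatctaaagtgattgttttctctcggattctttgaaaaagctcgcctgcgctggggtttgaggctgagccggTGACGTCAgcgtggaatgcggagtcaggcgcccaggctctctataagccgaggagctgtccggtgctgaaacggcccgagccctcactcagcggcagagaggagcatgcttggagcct
Bdnf: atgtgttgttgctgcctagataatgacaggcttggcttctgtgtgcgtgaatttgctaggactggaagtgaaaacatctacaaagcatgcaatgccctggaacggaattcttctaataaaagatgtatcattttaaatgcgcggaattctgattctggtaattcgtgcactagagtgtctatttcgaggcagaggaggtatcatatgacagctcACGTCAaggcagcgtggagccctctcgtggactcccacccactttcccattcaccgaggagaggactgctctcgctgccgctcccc
A match describes these letters only, and the Bdnf region is that of 1 of the several starts of this gene.

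Between P21 and P60, expression in Exc_13 differed for 516 of 5018 tested genes (10.3%), 203 higher (4.05%) and 313 lower (6.24%) in the 6 saline P60 libraries than in the 3 P21 libraries. The saline P60 mice had also gone through food restriction, catheter surgery, lever training and saline sessions, while the P21 mice were untreated. Age and this history cannot be told apart, so the age changes below stand for both. Genes were called at an adjusted p below 0.05 (edgeR quasi-likelihood, Benjamini-Hochberg) and a change over 1.5-fold. Called or not, 751 of the 5018 tested genes (15%) had P21 and saline P60 libraries that did not overlap. Among the genes that fell were 6 of 13 tested immediate early genes and 5 of 14 tested genes of axon growth. None of the 5 tested L6 IT markers or 2 tested opioid genes passed.

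Of 19 immediate early genes, which neurons switch on within minutes of activity, 13 were tested, 6 were lower at P60 and none was higher. Their median log2 change was -0.98, against 0.01 over all tested genes. A gene could pass the filter on low counts through the 3 P21 libraries alone, which favors falls in this list. The count and the median are therefore a description. In the cocaine comparisons, filtered on P60 libraries alone, 10 of the 19 were tested. Junb lay at 229, 209 and 175 CPM in the P21 libraries and at 30.5, 49.0, 71.4, 41.8, 36.6 and 68.2 CPM in the saline P60 libraries (log2 change -2.07 ± 0.20 SE, edgeR adjusted p = 1.35e-07). Fos lay at 143, 189 and 183 CPM at P21 and at 16.3 to 76.8 CPM (median 40.7) in the saline P60 libraries (-1.74 ± 0.23, edgeR adjusted p = 4.39e-05). Neither gene's ages overlapped. Npas4, an activity-dependent transcription factor of neurons, lay at 58.9 to 79.2 CPM at P21 and at 0 to 29.5 CPM in saline P60 libraries (-1.84 ± 0.33, edgeR adjusted p = 0.000896). Nr4a3, Jun and Btg2 were the other 3 that fell.

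Of 20 axon growth and young-neuron genes, 14 were tested, 5 were lower at P60 (Tubb2b, Nnat, Marcks, Crmp1 and Dpysl3) and none was higher, with a median log2 change of -0.44. The same limit of the filter holds for this list. Nnat, neuronatin, lay at 1549, 2675 and 2497 CPM at P21 and at 372 to 692 CPM (median 567) in the saline P60 libraries (4-fold lower, log2 SE 0.18, edgeR adjusted p = 1.02e-05). Tubb2b, a beta-tubulin of growing axons, lay at 145, 195 and 177 CPM at P21 and at 22.9 to 60.2 CPM (median 41.9) at P60 (-2.05 ± 0.20, edgeR adjusted p = 1.35e-07). Both genes fell with no overlap between ages. In the list of epigenetic regulators named by the study, 7 of 11 were tested: the DNA methyltransferase Dnmt3a, Ube2d3 and Yeats4 were lower at P60 and the arginine methyltransferase Prmt1 was higher.

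Several genes that set Exc_13 apart from Exc_12 rose from P21 to P60. Of the 24 higher genes 20 passed the filter on low counts, and 10 of these were called higher at P60 and 1, Dmkn, lower; this list was drawn on P60 libraries that also enter the age test, so the count is a description. Inhba lay at 75.4, 64.3 and 37.7 CPM at P21 and at 171, 123, 175, 192, 128 and 153 CPM in the saline P60 libraries (1.39 ± 0.21, edgeR adjusted p = 8.3e-05). Cited1 lay at 12.5 to 21.4 CPM at P21 and at 56.2 to 107 CPM (median 66.0) at P60 (2.03 ± 0.27, edgeR adjusted p = 2.12e-05). Both rose without overlap. Nptx2 lay at 102, 89.2 and 64.1 CPM at P21 and at 114 to 226 CPM (median 143) at P60 (0.82 ± 0.21, edgeR adjusted p = 0.0112; lost in 4 of 17 alternatives, among them without the third P21 library, adjusted p up to 0.307), and Ier3 at 15.1 to 40.2 against 76.3 to 198 CPM (2.01 ± 0.32, edgeR adjusted p = 0.000516). Cd7 lay at 25.1, 12.5 and 15.1 CPM at P21 and 34.3 to 75.2 CPM at P60 (1.44 ± 0.30, edgeR adjusted p = 0.00214).

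The peptide Grp moved the other way. It lay at 62.9, 123 and 132 CPM at P21 and at 0, 32.7, 9.74, 16.7, 20.5 and 12.0 CPM in the saline P60 libraries of Exc_13 (-2.57 ± 0.35, edgeR adjusted p = 0.000207), with no overlap. Oprk1 lay at 75.4, 120 and 94.2 CPM at P21 and at 60.7 to 156 CPM in saline P60 libraries (0.05 ± 0.27), and Penk at 137 to 273 against 104 to 293 CPM (-0.24 ± 0.34), so the ages overlapped for both. Npy lay at 860, 935 and 1234 CPM at P21 and 210 to 909 CPM at P60, a change of -0.84 ± 0.37 that did not pass (edgeR adjusted p = 0.178).

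Among called genes whose libraries did not overlap between ages (390 genes, 7.77% of those tested), the largest rises were in H2-T22, Ifi27l1, Incenp, Aldoc, Cited1, Ier3, Myl4, 6330406I15Rik, Jsrp1 and Tuba8. H2-T22, a nonclassical class I histocompatibility gene, lay at 1.88 to 8.80 CPM at P21 and 16.7 to 45.5 CPM at P60 (2.55 ± 0.43, edgeR adjusted p = 0.000292), although 3 other genes end within 300 bases of it. Incenp, a subunit of the chromosomal passenger complex, lay at 9.42 to 17.6 CPM at P21 and 35.7 to 92.3 CPM at P60 (2.20 ± 0.30, edgeR adjusted p = 2.48e-05), and Aldoc, a glycolytic aldolase also on the astrocyte list, at 12.5 to 52.8 against 85.8 to 193 CPM (2.18 ± 0.41, edgeR adjusted p = 0.00609). The other tested gene of that list, the glutamate transporter Slc1a2, was lower at P60 (205 to 226 against 81.7 to 177 CPM; -0.77 ± 0.17, edgeR adjusted p = 0.0028). The largest falls were in Gm10071, which lies within Med12l, Grp, Tmem93, 2310036O22Rik, Ucma, Nav1 (1 of 2 entries with this symbol), Cox5a, Cck, Hist1h2bc and Ifngr2. The histone gene Hist1h2bc lay at 116, 143 and 99.9 CPM at P21 and 11.4 to 44.9 CPM at P60 (-2.11 ± 0.23, edgeR adjusted p = 1.12e-06). The cholecystokinin gene Cck lay at 7495, 2781 and 2292 CPM at P21 and at 572 to 2047 CPM (median 687) in the saline P60 libraries (-2.16 ± 0.54, edgeR adjusted p = 0.0375). Cck lost this call in 12 of 17 alternatives, with log2 changes from -2.54 to -0.10 and adjusted p up to 0.872, among them without library 2, 3, 5, 7 or 11 or without the first or second P21 library. Myl4 lost its call in 9 of 17 (0.88 to 2.25, adjusted p up to 0.608), among them without library 3, 7 or 12 or without any 1 of the P21 libraries.

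**Figure D3:**
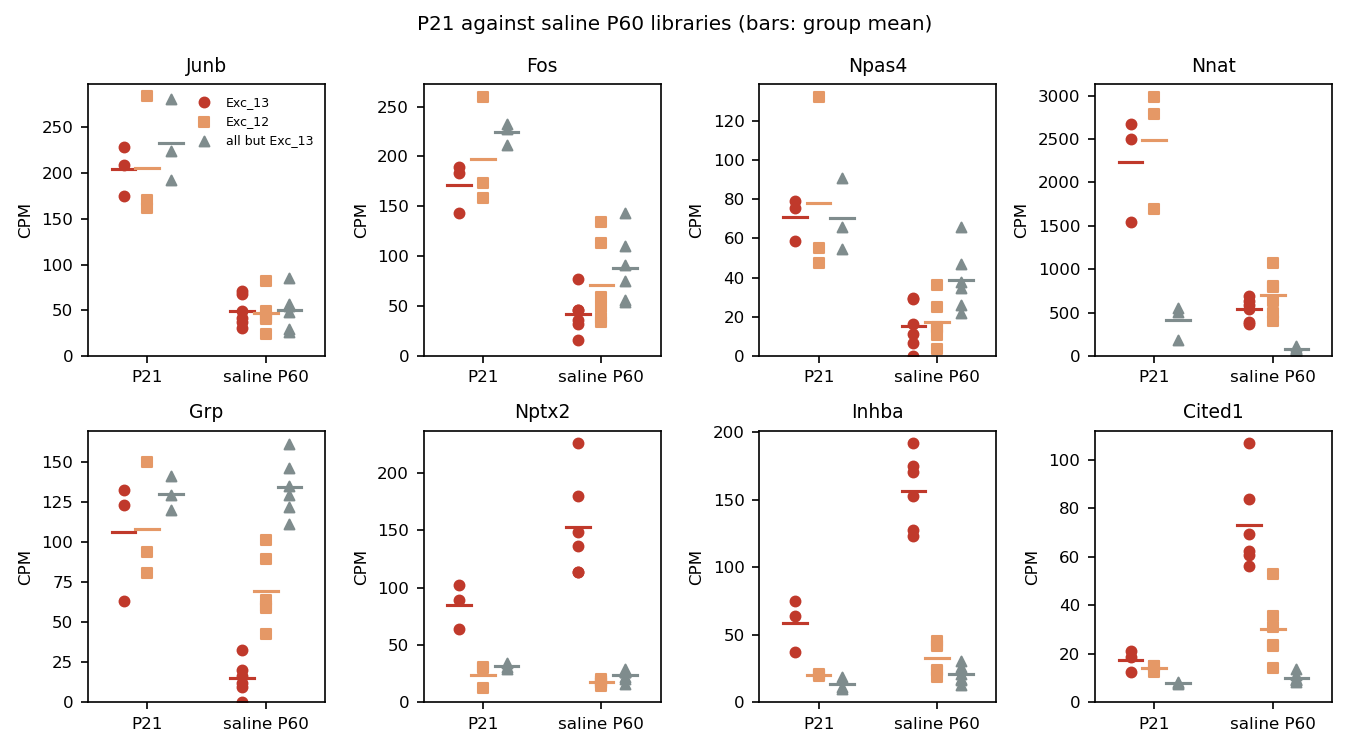
Levels (CPM, each panel with its own axis from 0) of 8 genes at P21 and in saline P60 libraries, one point per library, for Exc_13 (red circles), Exc_12 (orange squares) and all excitatory clusters but Exc_13 (gray triangles), with bars at group means. Junb, Fos, Npas4 and Nnat have lower means at P60 in all 3 cell groups, while Grp lies at 0 to 32.7 CPM in Exc_13 at saline P60 and stays at 111 to 161 CPM in the other excitatory cells, and Nptx2 rises in Exc_13.

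Values of other markers were compared between ages in Exc_13. The P60 sums of the lists cover all 12 P60 libraries, cocaine included, while the tests used the 6 saline ones. Oligodendrocyte markers summed to 56.2 to 175 CPM at P60 and 171 to 1988 CPM at P21, the highest value in the first P21 library, so the ages overlapped. The 2 tested markers were both lower at P60, with a median log2 change of -3.14, and 0 of 2 passed. Astrocyte markers summed to 167 to 414 CPM at P60 and 236 to 434 CPM at P21. Endothelial markers summed to 26.8 to 86.6 CPM at P60 and 93.0 to 162 CPM at P21, with Itm2a, the 1 tested, called lower at P60 (-1.19 ± 0.24, edgeR adjusted p = 0.00141), and OPC markers to 0 to 8.03 and 12.5 to 22.6 CPM. The median mitochondrial share of Exc_13 cells was 2.60 to 2.94% in the saline P60 libraries and 3.50 to 4.12% at P21. Pan-excitatory markers summed to 6343 to 8001 CPM at P60 and 4749 to 5047 CPM at P21, with Snap25 the 1 of 6 tested that was called, higher at P60. Claustrum markers summed to 264 to 484 and 529 to 576 CPM, with Gnb4 the 1 of 3 tested that was called, lower at P60. L6 corticothalamic markers summed to 29.9 to 136 and 107 to 196 CPM, with Rprm, 1 of 2 tested, called lower at P60. L2/3 IT markers summed to 20.5 to 101 and 83.9 to 114 CPM, with Calb1, the 1 tested, called lower. Inhibitory markers summed to 0 to 25.6 and 22.6 to 35.8 CPM, with 0 tested. The endothelial, OPC, pan-excitatory and claustrum sums did not overlap between ages, and those of the other lists did. The mitochondrial share did not overlap against saline P60, but cocaine library 6 lay at 3.67%, within the P21 range. With the 8 members of a non-neuronal class left out, 486 genes were called. A difference between libraries also moved with age. A library score was the mean log2 (CPM + 1) of 100 genes in the other excitatory cells, centered on 0. These were the genes with the largest ratio of the second saline 15-day library over the first, all higher in the second. The score was 1.06, 0.52 and 0.37 at P21 and -0.70 to 0.38 in the saline P60 libraries. With the score as a covariate 71 genes were called (31 higher, 40 lower), among them Incenp, Jsrp1, Grp, Hist1h2bc, Nav1, Fos, Junb, Nnat, Tubb2b and Inhba. With the score, 4 of 13 immediate early genes were called lower (Fos, Junb, Nr4a1 and Btg2), 4 of 14 genes of axon growth (Gap43, Tubb2b, Tuba1a and Nnat), and 0 of 7 epigenetic regulators. Gnb4 and Itm2a kept their calls, and Snap25, Slc1a2, Dmkn, Rprm and Calb1 lost theirs. Of the single genes described, some lost the call at a log2 change like that without the score: H2-T22 (2.58, edgeR adjusted p = 0.108), Aldoc (2.37, 0.243), Cited1 (1.94, 0.0544), Ier3 (1.97, 0.148), Cd7 (1.86, 0.092), Nptx2 (1.02, 0.194), Myl4 (2.21, 0.411) and Npas4 (-2.02, 0.135). Ifi27l1, 6330406I15Rik, Tuba8, Gm10071, Ucma and Ifngr2 also lost it. For Cck (-0.10, edgeR adjusted p = 0.872), Cox5a (-0.36, 0.465), 2310036O22Rik (-0.32, 0.746) and Tmem93 (-1.02, 0.163) the change itself was smaller. These 4, and Junb and Yeats4, are among the 100 genes of the score, and these 4 also lost their call with all P60 libraries in the test. Cd7 also lost it with equal numbers of cells. Without the second P21 library 334 genes were called. What part these values have in the age changes was not tested further.

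Most of the age changes of Exc_13 did not differ detectably from those of other excitatory neurons. The difference of the age changes, tested with both cell groups of a library in 1 model, passed for 77 of 11431 genes (0.674%), 38 with a more positive change in Exc_13 (0.332%) and 39 with a more negative one (0.341%). Grp had the smallest adjusted p: it fell in Exc_13 but lay at 120 to 141 CPM at P21 and 111 to 161 CPM at saline P60 in the other excitatory cells, a difference of -2.56 ± 0.23 (log2 ± SE, edgeR adjusted p = 3.73e-24). So small a p-value rests mainly on the spread shared between genes, not on that of Grp between libraries. Grp kept its call in 14 of 14 alternatives. In Exc_12 Grp lay at 80.6 to 150 CPM at P21 and 42.8 to 101 CPM at P60 (-0.58 ± 0.26, edgeR adjusted p = 0.148).

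The genes higher in Exc_13 than in Exc_12 were chosen on P60 libraries that also enter this test, which favors a larger rise in Exc_13, so their values are a description. Nptx2 rose in Exc_13 but lay at 29.0 to 34.5 CPM at P21 and 16.2 to 29.2 CPM at P60 in the others (difference 1.22 ± 0.17, edgeR adjusted p = 1.6e-08). Cited1 (1.68 ± 0.32, edgeR adjusted p = 8.67e-05), Ier3 (1.09 ± 0.24, edgeR adjusted p = 0.00194), Inhba (0.79 ± 0.20, edgeR adjusted p = 0.0107), Nrp1, S100a3 and S100a13 were the other 6 of the 24 higher genes called with a positive difference. For Nrp1 this was a fall elsewhere, from 60.1 to 64.5 CPM at P21 to 17.6 to 32.8 CPM at saline P60 in the other excitatory cells, while in Exc_13 it lay at 62.2 to 82.1 and 45.7 to 81.2 CPM. S100a3 and S100a13 had too few counts for the age test in Exc_13 alone, and Ccnd1 differed in the other direction. Called or not, 21 of the 24 higher genes had a positive difference. Of the 22 lower genes, chosen by the same rule, 21 had a negative difference and 7 were called. Inhba lost its call in 5 of 14 alternatives (by DESeq2 and without library 7, library 12, or the first or the third P21 library, adjusted p up to 0.54). Ier3 lost it in 4 of 14, among them without the first P21 library (adjusted p up to 0.281). Tubb2b (-0.81 ± 0.19, edgeR adjusted p = 0.00677) and Npas4 (-1.06 ± 0.26, edgeR adjusted p = 0.00676) had a more negative change in Exc_13, but Npas4 lost this call in 4 of 14 alternatives (against the 3 most similar clusters, by DESeq2, and without library 12 or the third P21 library, adjusted p up to 0.887). No other of the 18 tested immediate early genes differed by this test, and 0 of the 4 tested opioid genes passed, Penk with a difference of 0.33 ± 0.15 (edgeR adjusted p = 0.421).

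Among the 42 called genes whose library values did not overlap (0.367%; of all tested genes, 429 or 3.75% did not overlap), the 5 largest differences in each direction were Trem2, Ifih1, Gfra1, S100a3 and Myl4 on the positive side and Nos1, Epb4.1l2, Cbln4, Grp and S100b on the negative side. Several rest on few UMIs in Exc_13: Trem2 on 2 at P21 and 32 at saline P60, Ifih1 on 4 and 28, Gfra1 (the GDNF co-receptor) on 6 and 35, Nos1 (neuronal nitric oxide synthase) on 18 and 3, Epb4.1l2 on 25 and 3, and Cbln4 on 15 and 5. Myl4, a myosin light chain, rested on 46 and 265 UMIs and rose from 12.5 to 30.2 CPM to 38.1 to 159 CPM in Exc_13 (difference 2.29 ± 0.28, edgeR adjusted p = 2.13e-07), while it lay at 254 to 275 CPM and 149 to 299 CPM in the others. Against the 3 most similar clusters Myl4 was not called (edgeR adjusted p = 0.332), nor were Trem2, Ifih1, Gfra1, Epb4.1l2 and Cbln4. Against Exc_12, Exc_24 and Exc_14 alone 37 genes passed, without the first P21 library 42, and by DESeq2 18.

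The share of Exc_13 among excitatory cells did not differ detectably between ages or treatments. At P21 it was 3.06%, 4.00% and 3.31% (3.46% ± 0.487, n = 3) and in the saline P60 libraries 1.43 to 4.67% (3.03% ± 1.32, n = 6; two-sided exact permutation test, p = 0.655). In cocaine libraries it ranged from 1.53 to 5.44% (3.46% ± 1.86, n = 6), a difference of 0.425 points from saline (exact permutation within time points, 216 regroupings, p = 0.528). Without the second cocaine 15-day library (library 10, 5.22%) the difference was -0.158 points.

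Cocaine against saline gave no called gene in Exc_13 at the end of maintenance (0 of 5225, 0%; 205 at an unadjusted p below 0.05; DESeq2 0) or after 48 h of withdrawal (0%; 251 at an unadjusted p below 0.05; DESeq2 0). With 2 libraries per group, 32.8% and 32% of tested genes had groups that did not overlap, so separation of the groups says little for a single gene. In simulated counts, 45% (maintenance) and 34% (48 h) of 200 genes given a log2 change of 1 were called, so many changes of this size would be missed. After 15 days of withdrawal 80 genes were called (1.53%), each higher after cocaine. At 15 days 34.8% of tested genes had groups that did not overlap. Over the 3 time points in 1 additive model 15 genes were called (0.287%), 14 higher (0.268%) and 1, Oprk1, lower (0.0191%).

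Oprk1, the receptor gene that marks Exc_13 and Exc_12, was lower after cocaine within each time point. At the end of maintenance it lay at 156 and 139 CPM in the saline libraries and at 64.0 and 75.3 CPM in the cocaine libraries. After 48 h it lay at 97.4 and 87.7 CPM against 45.0 and 46.1 CPM, and after 15 days at 60.7 and 64.2 CPM against 55.6 and 45.8 CPM. Saline and cocaine libraries did not overlap at any time point, but they did across time points, since Oprk1 was also lower in later saline groups. The additive change was -0.74 ± 0.17 (log2 ± SE, edgeR adjusted p = 0.0285), from -1.10 ± 0.27 at maintenance and -1.02 ± 0.38 at 48 h to -0.29 ± 0.25 at 15 days, none of which passed on its own.

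The fall of Oprk1 was not called in the related cells. In Exc_12 the saline values were 93.5, 89.2, 73.1, 65.9, 66.0 and 37.8 CPM and the cocaine values 87.4, 63.9, 71.7, 47.8, 39.7 and 51.9 CPM, in time order (-0.26 ± 0.15, edgeR adjusted p = 0.77). The difference between Exc_13 and the other excitatory cells in their Oprk1 change was -0.58 ± 0.24 (edgeR, unadjusted p = 0.0147 and adjusted p = 1 in the quasi-likelihood test over all genes), so a change particular to Exc_13 was not shown. Oprk1 stayed below the threshold in 10 of 17 alternatives, with adjusted p from 0.0123 to 0.257. It was lost by DESeq2 (0.257), with the library score as a covariate (-1.01 ± 0.22, adjusted p = 0.0618) and without any 1 of 5 libraries: library 1, 2, 4, 10 or 11. Penk (saline 104 to 293 CPM, cocaine 124 to 256 CPM) and Npy (210 to 909 and 356 to 778 CPM) overlapped between treatments and were not called.

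**Figure D4:**
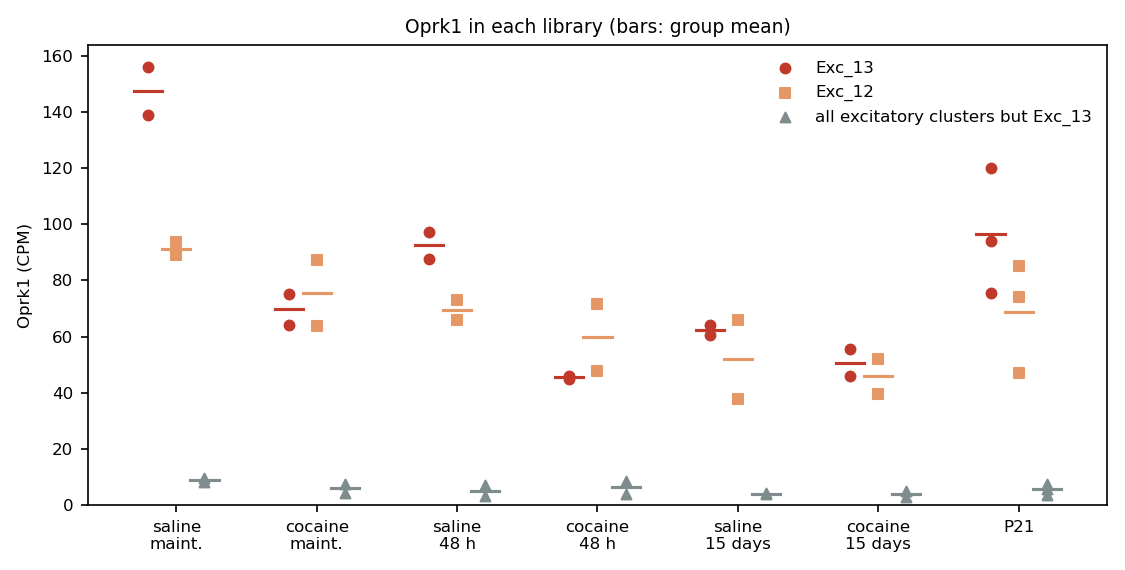
Oprk1 (CPM, axis from 0) in each library of the 6 P60 groups and of P21, for Exc_13 (red circles), Exc_12 (orange squares) and all excitatory clusters but Exc_13 (gray triangles), with bars at group means. In Exc_13 both cocaine libraries lie below both saline libraries at each time point, with the widest gap at maintenance (139 and 156 CPM against 64.0 and 75.3 CPM).

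The change with cocaine at the end of maintenance differed between Exc_13 and the other excitatory cells for 3 of 12162 genes (0.0247%; 2 higher in Exc_13, 0.0164%, and 1 lower, 0.00822%), in a test added after the values were seen. S100a6, a calcium-binding protein also among the genes higher in Exc_13 than in Exc_12, lay at 546 and 278 CPM after cocaine and at 331 and 237 CPM after saline in Exc_13, where the groups overlapped. In the other cells it lay at 172 and 137 CPM after cocaine and at 301 and 182 CPM after saline (difference 1.19 ± 0.19, edgeR adjusted p = 4.68e-06). The others were Rgs4, a regulator of G protein signaling (1.90 ± 0.37, edgeR adjusted p = 0.00152), and the hemoglobin gene Hbb-b1 (-2.04 ± 0.38, edgeR adjusted p = 0.000348), named after their values were seen. After 48 h and over the 3 time points 0 genes differed (0%; edgeR, 493 and 448 at an unadjusted p below 0.05; DESeq2 was not run for these).

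The 10 largest rises after 15 days of withdrawal were Fbxl15, Tmem93, 2310036O22Rik, Ccdc85b, Gm1673, Apoe, Grin2a, Pfn1, Snf8 and Fbxo2. Tmem93 lay at 152 and 149 CPM in the cocaine libraries (9 and 10) and at 18.8 and 52.2 CPM in the saline libraries (11 and 12; 2.57 ± 0.33, edgeR adjusted p = 1.32e-05). Fbxl15, an F-box subunit of a ubiquitin ligase, lay at 72.1 and 38.4 against 5.36 and 4.01 CPM (3.29 ± 0.58, edgeR adjusted p = 0.000402), and the NMDA receptor subunit Grin2a at 70.1 and 71.7 against 18.8 and 28.1 CPM (1.80 ± 0.32, edgeR adjusted p = 0.000421). Apoe, an astrocyte list gene that encodes a lipid carrier, lay at 103 and 53.9 against 18.8 and 24.1 CPM (1.88 ± 0.40, edgeR adjusted p = 0.00391). That each of these genes was higher in both cocaine libraries follows from the rule that named them.

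Tmem93 and Fbxl15 were also higher in both cocaine libraries in the other excitatory cells, and highest in the first P21 library. In all excitatory cells but Exc_13, Tmem93 lay at 168 and 144 CPM after cocaine and at 20.7 and 80.7 CPM after saline, and at 278, 166 and 133 CPM at P21. Fbxl15 lay there at 47.7 and 39.8 CPM, 6.94 and 18.7 CPM, and 94.1, 21.3 and 14.9 CPM, in the same order. The library score was 0.84 and 0.77 in the cocaine and -0.63 and 0.38 in the saline 15-day libraries, where the gap between the saline libraries is fixed by how the score was built. All 10 genes with the largest rises are among the 100 genes of the score. By their choice, these 100 were all higher in saline library 12 than in library 11 in the other excitatory cells. With the score as a covariate 0 genes were called, without saline library 11 0, without saline library 12 137, without cocaine library 9 41, without cocaine library 10 30, and by DESeq2 5 (2310044H10Rik, 2310036O22Rik, Atxn7l3b, Nrgn and Tmem93). The difference between Exc_13 and the other excitatory cells in their 15-day change was called for 0 of 12162 genes (0%; edgeR, 272 at an unadjusted p below 0.05). Treatment and this library difference cannot be told apart at 15 days.

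**Figure D5:**
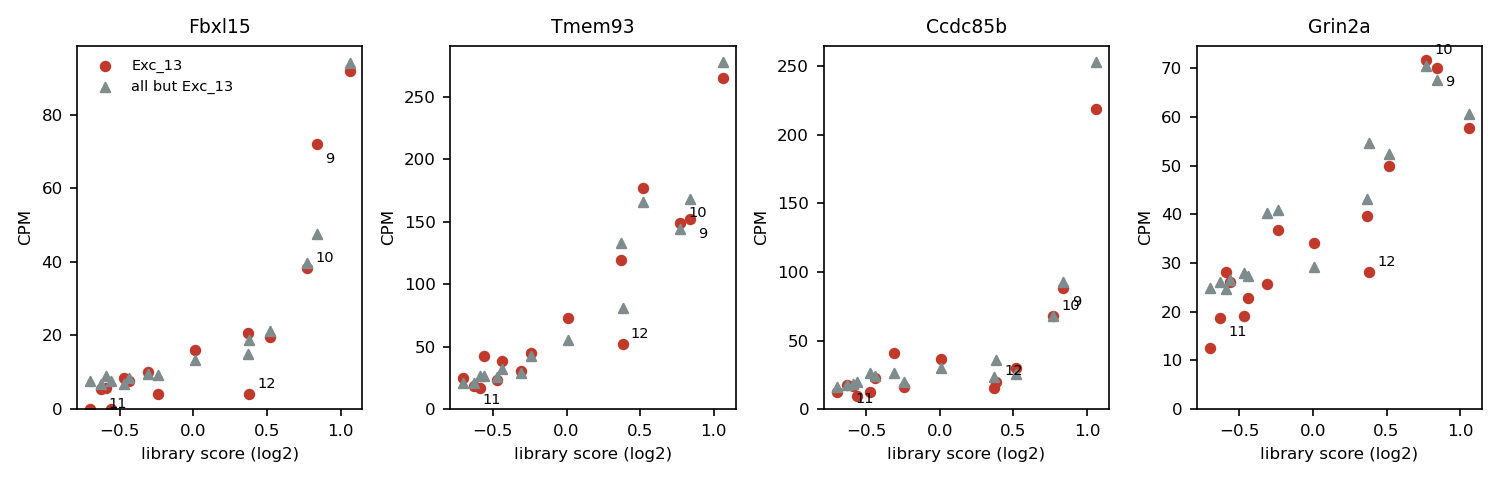
Levels of Fbxl15, Tmem93, Ccdc85b and Grin2a (CPM, axes from 0) against the library score (log2 units) in all 15 libraries, for Exc_13 (red circles) and all excitatory clusters but Exc_13 (gray triangles); numbers mark the 15-day libraries, cocaine 9 and 10 and saline 11 and 12. All 4 genes are among the 100 whose mean in the gray cell group is the score, so the gray points follow it in part by construction. The P21 library with a score of 1.06 is highest for Fbxl15, Tmem93 and Ccdc85b, while Grin2a is highest in cocaine libraries 9 and 10.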

How the data were processed

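Single-cell 3' RNA sequencing libraries of the mouse PFC were counted by the authors with Cell Ranger (given as 13.1 in the submitters' processing notes, which differs from the release in their methods) against mm9, and clustered with Seurat 2.1.0. The deposited values are raw UMI counts per gene and cell, which the authors did not normalize, and a table of retained cells with class, cluster and mitochondrial fraction, a fraction from 0 to 1 given by the authors. The authors removed cells with unusually many genes as possible doublets, and none were removed here. Labels also name the nucleus accumbens as tissue, but titles and methods name the PFC, which was used.

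UMIs were summed over the Exc_13 cells of each library (at least 10 cells), and of 26145 listed genes, 13 mitochondrial ones and 143 for ribosomal proteins were not used. Sums were tested with edgeR 4.0.16 in R 4.3.3 (filterByExpr, TMM, robust quasi-likelihood, Benjamini-Hochberg over all tested genes). Age compared 6 saline P60 with 3 P21 libraries, the difference of age changes used the library as a block, and cocaine was compared within each time point and additively over the 3 time points. Genes were called at an adjusted p below 0.05 and a change over 1.5-fold. The tests of age and of cocaine in Exc_13 were tried on simulated counts with known changes before use. Those of a difference between cell groups were not. Of 200 genes given a log2 change of 1, 77.5% were called for age and 45% at maintenance. The shares were 34% at 48 h, 69.5% at 15 days and 87.5% in the additive fit. Shares were compared by exact permutation over libraries.

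Named genes were the marker lists, the 12 highest and 8 lowest genes of Exc_13 against other clusters, the 10 largest called changes per direction whose libraries did not overlap (5 for the difference of age changes), and members of function lists. The cluster, the lists and these rules were chosen with earlier results of these data known. Genes compared with Exc_12, the start regions printed and the library score were chosen after values were seen. Alternatives were DESeq2 1.42.0, RLE scaling, no filter, other cell minimums, equal numbers of cells, other reference cells and leaving out each library, and, added later, cells of the authors' excitatory class alone, the library score and other denominators. No strand or overlap handling beyond the counter's is stated.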

Additional observations from a re-analysis of the deposited data

Results flagged for a closer look

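In 4 genes of Exc_13, a single saline P60 library stood apart from the other 5 by the gap between them: Sulf1 in library 3 (53.1 CPM, others 24.1 to 33.4), S100a13 in library 5 (68.2 CPM, others 16.7 to 28.6), S100a3 in library 5 (120 CPM, others 20.4 to 57.2) and Ier3 in library 2 (198 CPM, others 76.3 to 114). Of 50 gene groups examined, chance alone would mark about 1 in 20. Library 5 held 25 Exc_13 cells, library 3 held 21 and library 2 held 15.

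The age change in Exc_13 differed from that in other excitatory neurons for 77 genes by the test of the difference itself. Given here are 10 of them, the largest differences in each direction among the 42 whose library values did not overlap. The log2 differences were 3.72 for Trem2, 2.99 for Ifih1, 2.94 for Gfra1, 2.61 for S100a3 and 2.29 for Myl4, and -3.21 for Nos1, -2.93 for Epb4.1l2, -2.85 for Cbln4, -2.56 for Grp and -2.43 for S100b. Grp passed in 14 of 14 alternatives, Myl4 in 13, Gfra1, S100a3 and Nos1 in 12, Trem2, Ifih1 and S100b in 11, Epb4.1l2 in 9 and Cbln4 in 7. Against the 3 most similar clusters, Trem2, Ifih1, Gfra1, Myl4, Epb4.1l2 and Cbln4 no longer passed. With the members of the authors' excitatory class alone, Trem2, Epb4.1l2 and S100b no longer passed. Gfra1 and S100b each have another gene ending within 300 bases on the opposite strand.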

How the results depend on the processing

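Age calls in Exc_13 (516) were 196 with 15 cells drawn per library and 71 with the library score, and 334 to 627 on leaving out single libraries, lowest without the second and highest without the first P21 library. Calls for the difference of age changes (77) were 37 against the 3 most similar clusters, 18 by DESeq2 and 42 to 84 on leaving out libraries, lowest without the first P21 library. At maintenance (0 called) the unfiltered fit called 1 gene, Nnat, and leaving out libraries gave 0 to 0. At 48 h (0 called) the score fit called 1 gene, Ppia, and leaving out libraries gave 0 to 3 (Lingo1, Ppia and Igfbp4 without library 6). At 15 days (80 called) DESeq2 gave 5, the score fit by edgeR 0 (213 at an unadjusted p below 0.05), and leaving out libraries 0 (library 11) to 137 (library 12), with 41 and 30 without libraries 9 and 10. The additive model (15 called) gave 0 by DESeq2 (178 at an unadjusted p below 0.05), 51 unfiltered, 0 with the score (243), and 0 (without library 11) to 43 (without library 3) on leaving out libraries, with 34, 9, 9 and 4 without libraries 1, 4, 9 and 10. The share difference between cocaine and saline ranged from -0.158 (without library 10, p = 0.852 by exact permutation) to 1.01 points, and that between P21 and saline P60 from 0.107 to 0.757. The other alternatives run left these counts within 1.5 times and the share differences with their sign. The causes were not tested. Of 883 pairs of a named gene and an alternative, 757 kept their side of the threshold, 126 lost the call and 0 reversed. No paired analysis was possible because the labels give no replicate numbers that link libraries of different groups. Depth limits low genes most at 48 h, where libraries held 14 to 25 Exc_13 cells.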

Other observations

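Beyond the comparisons above, the receptor and guidance genes of Exc_13 showed a few extremes among the excitatory clusters, given as a description over P60 libraries. Sema3e, a secreted semaphorin, lay at 51.8 ± 18.2 CPM against 44.4 CPM in Exc_12, and Plxna4, a semaphorin receptor subunit, at 79.3 ± 16.8 CPM against 68.4 CPM in Exc_14, each the highest of the 26 clusters. The GABA-A subunit Gabra3 lay at 82.7 ± 15.3 CPM against 78.3 CPM in Exc_12. The immediate early gene Fosl2 was highest in Exc_13 at 32.1 ± 12.9 CPM against 24.6 CPM in Exc_2, and Nr4a2, also on the claustrum and L6b lists, at 26.8 ± 10.4 CPM against 21.1 CPM in Exc_18. For each of these genes the lead over the next cluster was smaller than the SD, so the order lies within the spread. Of all 5854 genes with at least 20 CPM, 168 were highest in Exc_13. The sodium channels Scn2a1 (331 CPM against a mean of 407 CPM) and Scn3a (49.2 against 69.4 CPM) and the young-neuron gene Crmp1 (66.4 against 106 CPM) were lower than in any other excitatory cluster.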
